A study of Mus musculus with 18 samples.

Results

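Extracellular ATP, adenosine and NAD are sensed and broken down at the T cell surface by a small set of enzymes and receptors, and 6 of their genes are described here across 6 populations of intestinal CD4 T cells. The 6 were chosen by gene symbol from the 38392 genes of the deposited table, with earlier results of these data known: Entpd1, Nt5e, P2rx7, Adora2a, Cd38 and Art2b. All 6 passed the filter on low values and were among the 15472 genes tested. ATP released by cells acts on P2 receptors, of which P2rx7 is an ATP-gated ion channel. Entpd1 (CD39) takes ATP and ADP down to AMP, Nt5e (CD73) turns AMP into adenosine, and adenosine acts on receptors such as Adora2a, which raises cyclic AMP in T cells. Extracellular NAD is consumed by Cd38 and is also the substrate of Art2b, a surface ADP-ribosyltransferase of mouse T cells that can modify and open P2rx7. The route is known for its activity in regulatory and in tissue-resident T cells.

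The libraries were made by mRNA sequencing of sorted T cells from the small intestine of mice. Donor cells were CD4+ CD8α- Foxp3-GFP- and came from C57BL/6 TNa TNb RAG1-/- Foxp3GFP mice, derived by nuclear transfer from a peripherally induced regulatory T cell, so that all transferred cells carried the T cell receptor of 1 clone. They were given to C57BL/6 TCRa-/- TCRb-/- hosts, which make no αβ T cells of their own but still have γδ T cells and B cells, and were recovered 6 weeks later. Cells of the intraepithelial compartment (IEL) and of the lamina propria beneath it (LP) were each sorted into 3 populations. SP cells had CD4 and neither CD8α nor Foxp3, DP cells had CD4 and CD8α, and TR cells had CD4 and Foxp3. All 6 groups share the donor and host strains and the transfer, and each has 3 libraries, so that n = 3 for every mean ± SD below. The labels call these biological replicates without naming the animals, so p-values measure only the spread between these libraries.

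Recovered reads ran from 5093955 to 8851347 per library. The defining T cell genes (Cd3e, Cd3d, Cd3g, Cd2, Lck and Cd4) were at 10 or more normalised counts in all 18 libraries. Cd8a was at 3364 or more in every DP library and at 113 or less elsewhere, and Foxp3 was at 66.2 or more in every TR library and at 39.9 or less elsewhere. The IEL TR libraries stood apart from the rest. Their pairwise correlations lay between 0.804 and 0.873, and those of each other group between 0.924 and 0.944, and the median SD of a gene (log2) was 0.547 against 0.305 to 0.349. Comparisons with IEL TR were therefore fitted on their own groups, and all others on the 15 remaining libraries. A change below is the difference in log2(normalised count + 1), first-named group minus second, with its standard error. The fold in brackets is on the same scale, where the added 1 shrinks the change of low genes. Because log values are averaged, the fold can be smaller or larger than the ratio of mean counts. A gene was called at an adjusted p under 0.05 from limma with Benjamini-Hochberg adjustment over all genes tested. In sorted populations measured in bulk, fewer cells with a transcript and less transcript per cell cannot be told apart.

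Between regulatory and other cells, Entpd1 and Cd38 moved in opposite directions: Entpd1 was higher and Cd38 lower in LP TR than in LP SP and LP DP, and Art2b was also higher in LP TR than in LP DP. Between compartments, Cd38 was higher in IEL than in LP cells of the SP and DP populations, Adora2a was lower in IEL SP than in LP SP, and Art2b was higher in IEL DP than in LP DP. P2rx7 was called in none of the comparisons, and Nt5e in 1. In the epithelium the same 3 genes, Entpd1, Cd38 and Art2b, passed between DP and TR cells, in the same directions. Each of these epithelial calls was lost without any 1 IEL DP library, with a block for replicate number and with no filter. Between DP and SP cells none of the 6 passed in either compartment.

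By comparison, 2 of 6 members were called in LP TR against LP SP, where limma called 9.5% of all genes, and 3 of 6 in LP DP against LP TR, where it called 13.2%. For IEL DP against IEL TR the count was 3 of 6 beside 4.14% of all genes. Across compartments it was 3 of 6 for SP cells beside 9.91%, and 2 of 6 for DP cells beside 9.51%. In IEL TR against IEL SP limma called 0 members (2.91% of all genes), with 3 at an unadjusted p under 0.05, 0 called by edgeR and 3 by DESeq2. The count was also 0 in IEL TR against LP TR (0.601% of all genes), with 1 at an unadjusted p under 0.05, 0 called by edgeR and 1 by DESeq2. In IEL DP against IEL SP (0.213% of all genes) and in LP DP against LP SP (0.769%), limma, edgeR and DESeq2 each called 0 members, with 1 at an unadjusted p under 0.05 in each. The median change of the 6 members ran from -0.34 in LP DP against LP SP to 0.48 in IEL SP against LP SP, and the median over all genes tested in the same comparisons was -0.008 and 0.025. Comparisons that share a group use the same libraries and are not independent of each other.

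**Figure D1:**
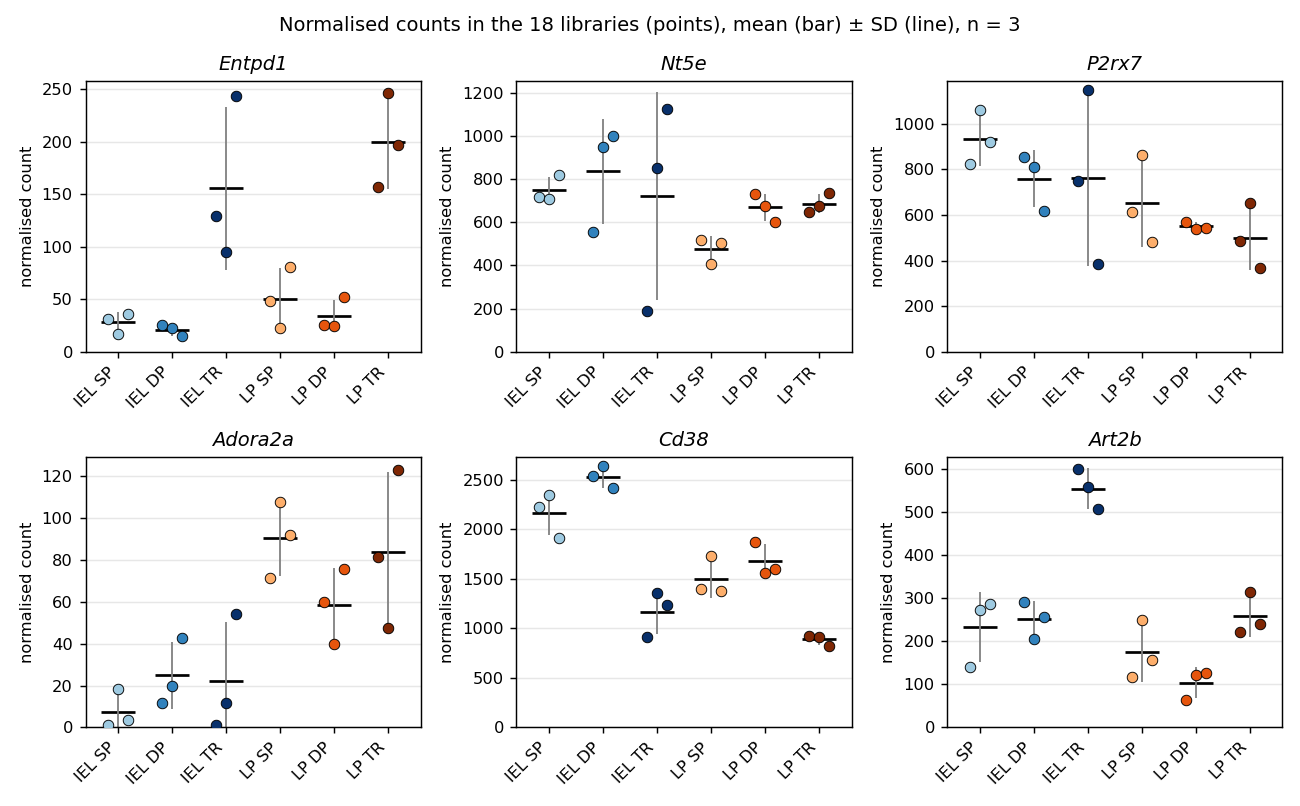
Normalised counts of the 6 genes (vertical axes, each from 0) in the 18 libraries, by population and compartment (horizontal axes); points are libraries, bars the group means and lines ± SD, n = 3. Entpd1 is at 94.9 or more in every TR library and at 81.1 or less in the others, whereas Cd38 is highest in the IEL DP libraries and lowest on average in LP TR.

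Entpd1 (ENSMUSG00000048120, GRCm38 chromosome 19, 40612366 to 40741602, plus strand) encodes the enzyme that removes extracellular ATP and ADP. In the lamina propria the SP libraries had 48.0, 22.4 and 81.1 normalised counts, the DP libraries 25.8, 24.6 and 51.8, and the TR libraries 157, 246 and 197. In the epithelium the values were 31.0, 17.04 and 35.6 in SP, 25.7, 22.3 and 14.9 in DP, and 129, 94.9 and 243 in TR. The 6 TR libraries lay above the 12 others in both compartments, while SP and DP libraries overlapped.

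LP TR exceeded LP SP by 2.12 ± 0.45 (4.35-fold, adjusted p = 0.00848), and LP DP lay below LP TR (-2.58 ± 0.45, adjusted p = 0.00153). IEL DP lay below IEL TR as well (-2.76 ± 0.45, adjusted p = 0.0306). IEL TR against IEL SP gave a difference of similar size that did not pass (2.39 ± 0.48, adjusted p = 0.0653). That difference passed with 1 variance pooled over all 18 libraries (adjusted p = 0.00432) and with DESeq2 (adjusted p = 0.000305). These settings called 1799 and 1517 genes in all, against 450 in the main fit. A variance pooled over all 18 libraries is too small for IEL TR, whose spread was wider. The IEL DP against IEL TR call was lost without IEL TR replicate 3 (adjusted p = 0.0518) and without any 1 of the 3 IEL DP libraries (adjusted p = 0.108 to 0.133). With no filter it was 0.316, and with a block for replicate number 0.127. The 2 calls within the lamina propria held under every alternative run, at adjusted p up to 0.0418 for LP TR against LP SP.

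In order of mean level, Entpd1 stood at 200.1 ± 44.8 in LP TR, 156 ± 77.6 in IEL TR, 50.5 ± 29.5 in LP SP, 34.1 ± 15.4 in LP DP, 27.9 ± 9.68 in IEL SP and 20.96 ± 5.52 in IEL DP. LP TR and IEL TR overlapped, LP SP lay apart from IEL TR, and each pair of neighbours below LP SP overlapped. Entpd1 is also known from B cells. In the lamina propria the sum of B cell markers was likewise higher in TR libraries, and in the epithelium the sums of TR, SP and DP libraries overlapped. Summed over 8 B and plasma cell markers, the libraries ran from 102 to 573 in LP TR and from 8.4 to 279 in IEL TR, against 12.7 to 42.4 in LP DP, 1.2 to 20.9 in LP SP, 20.3 to 29.8 in IEL DP and 2.0 to 28.8 in IEL SP. Of the 8 markers, 1 was at 10 or more in all LP TR libraries and 0 in all IEL TR libraries, Fcrla was at 0 in all TR libraries, and Igj was at 0 in all IEL TR libraries. Their part in the Entpd1 difference was not tested.

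Nt5e (ENSMUSG00000032420, chromosome 9, 88327197 to 88372092, plus strand) encodes the enzyme that makes adenosine from AMP. Its group mean was lowest in LP SP, whose libraries had 518, 406 and 505 normalised counts, against 730, 673 and 603 in LP DP and 647, 676 and 734 in LP TR. The IEL SP libraries had 716, 709 and 820, and the IEL DP libraries 556, 950 and 999.8. The IEL TR libraries were spread from 188 through 850 to 1125, so that this group alone spanned the range of all the others.

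IEL SP exceeded LP SP by 0.66 ± 0.19 (1.57-fold, adjusted p = 0.0439), with no overlap between the libraries. This call sat close to the threshold: it was lost without any 1 of the 6 libraries compared (adjusted p = 0.0625 to 0.14), with edgeR (0.052), with no filter (0.0748) and with 1 variance over all 18 libraries (0.504). Within the lamina propria neither DP nor TR libraries overlapped those of SP, but the differences did not pass (0.49 ± 0.19, adjusted p = 0.375, and 0.53 ± 0.19, adjusted p = 0.104). IEL DP against LP DP did not pass either (0.28 ± 0.19, adjusted p = 0.402), and passed once IEL DP replicate 1 was left out (0.55, adjusted p = 0.0348). In the order of means the 5 groups from IEL DP (835 ± 243) through IEL SP (748 ± 61.9), IEL TR (721 ± 482) and LP TR (686 ± 44.4) to LP DP (668 ± 63.7) each overlapped the next, and LP SP (476 ± 61.3) lay apart from LP DP but within the range of IEL TR.

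P2rx7 (ENSMUSG00000029468, chromosome 5, 122643911 to 122691432, plus strand) encodes the ATP-gated channel of the set, and 119 of its exon bases are shared with the small RNA gene Mir8115. The IEL SP libraries had 823, 1058 and 919.7 normalised counts, IEL DP 854, 808 and 616, and IEL TR 749, 1148 and 383. In the lamina propria SP had 613, 865 and 483, DP 571, 537 and 544, and TR 485, 650 and 368. All 18 libraries carried the transcript, the LP DP libraries were the most alike, and the IEL TR libraries again covered nearly the whole range.

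The group means ran from 934 ± 118 in IEL SP through IEL TR (760 ± 382), IEL DP (759 ± 126), LP SP (654 ± 194) and LP DP (551 ± 17.99) to LP TR (501 ± 142), and every group overlapped its neighbour. IEL SP against LP SP came closest to a call (0.55 ± 0.22, unadjusted p = 0.0292, limma adjusted p = 0.153) and overlapped in its libraries. The IEL DP libraries lay above all LP DP libraries without passing (0.45 ± 0.22, adjusted p = 0.238). The IEL TR against LP TR value was 0.50 ± 0.44 (adjusted p = 0.709).

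Adora2a (ENSMUSG00000020178, chromosome 10, 75316877 to 75334784, plus strand) encodes the adenosine receptor of the set and was the lowest of the 6 in IEL SP. Its IEL SP libraries had 1.0, 18.1 and 3.39 normalised counts, IEL DP 11.8, 19.9 and 42.8, and IEL TR 1.05, 11.7 and 54.0. The LP SP libraries had 71.5, 107 and 91.6, LP DP 59.8, 39.9 and 75.3, and LP TR 81.1, 47.3 and 123. LP libraries were at 39.9 or more and IEL SP libraries at 18.1 or less, while IEL DP and IEL TR each had 1 library within the LP range.

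IEL SP lay below LP SP (-4.03 ± 0.68, adjusted p = 0.00182), a change larger in size than that of 99.8% of the genes tested. The call held under every alternative run, with log2 differences from -4.92 to -3.16 and adjusted p up to 0.0266. The same comparison in DP cells (-1.34 ± 0.68, adjusted p = 0.243) and in TR cells (-2.81 ± 1.21, adjusted p = 0.41) did not pass. Within the epithelium the DP against SP value was 2.04 ± 0.68 (unadjusted p = 0.00968, limma adjusted p = 0.49), and in the lamina propria it was -0.65 ± 0.68 (adjusted p = 0.855). The test of the difference between these 2 values gave 2.69 ± 0.96 (unadjusted p = 0.0145, adjusted p = 0.708), so a difference between compartments in the DP against SP change was not called. The same test for TR against SP gave 1.22 ± 1.54 (adjusted p = 0.878).

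Group means of Adora2a ran from 90.2 ± 18.1 in LP SP, 83.8 ± 37.9 in LP TR and 58.4 ± 17.8 in LP DP to 24.8 ± 16.1 in IEL DP, 22.3 ± 28.0 in IEL TR and 7.497 ± 9.26 in IEL SP, each overlapping the next. Myeloid and stromal markers moved with the SP comparison. The sum of 10 myeloid markers was 73.8 to 122 in IEL SP and 179 to 550 in LP SP, where 3 of 10 were at 10 or more in all libraries and Cd209a was at 0. The sum of 10 stromal and endothelial markers was 27.2 to 100.1 in IEL SP and 100 to 129 in LP SP, most of it Pecam1, with Cdh5, Col3a1, Dcn, Lum, Pdgfra and Pdgfrb at 0 in all LP SP libraries. Their part in the Adora2a difference was not tested.

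Cd38 (ENSMUSG00000029084, chromosome 5, 43868553 to 43912375, plus strand) encodes the main surface consumer of NAD, and per kilobase of exon it was the highest of the 6 genes in every group. The IEL SP libraries had 2219, 2349 and 1913 normalised counts, IEL DP 2537, 2636 and 2413, and IEL TR 912, 1353 and 1234. In the lamina propria SP had 1398, 1725 and 1373, DP 1874, 1556 and 1599, and TR 925, 915 and 827. The 6 IEL SP and DP libraries lay above all 12 others, and the 3 LP TR libraries lay below all but 1 IEL TR library.

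Both compartments showed less Cd38 in TR than in DP cells, with LP DP above LP TR by 0.91 ± 0.11 (1.88-fold, adjusted p = 0.000108) and IEL DP above IEL TR by 1.13 ± 0.17 (2.2-fold, adjusted p = 0.0236). LP TR lay below LP SP (-0.75 ± 0.11, adjusted p = 0.000821). IEL TR against IEL SP did not pass (-0.90 ± 0.18, adjusted p = 0.0638), and passed without IEL TR replicate 1 (-0.74, adjusted p = 0.0478), with library weights (0.0452), with quantile normalisation (0.0352), with DESeq2 (0.000394) and with 1 variance over all 18 libraries (0.000694). DESeq2 and the pooled variance called 1517 and 1799 genes in all, against 450 in the main fit. The IEL DP against IEL TR call was lost without IEL TR replicate 3 (0.0509) and without any 1 IEL DP library (0.106 to 0.124). It was also lost with libraries rescaled to equal totals (0.0504), with a block for replicate number (0.0776) and with no filter (0.268). Both LP calls against TR held under every alternative run, at adjusted p up to 0.021.

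Across compartments, IEL SP exceeded LP SP by 0.53 ± 0.11 (1.44-fold, adjusted p = 0.00911) and IEL DP exceeded LP DP by 0.60 ± 0.11 (1.51-fold, adjusted p = 0.00491). The SP call was lost when only those 2 groups were fitted (adjusted p = 0.0679), and the DP call held under every alternative run (up to 0.0261). IEL TR against LP TR gave 0.37 ± 0.18 (adjusted p = 0.465). The order of means was IEL DP (2529 ± 112), IEL SP (2160.0 ± 224), LP DP (1676 ± 172), LP SP (1499 ± 196), IEL TR (1166 ± 228) and LP TR (889 ± 54.1), in which LP DP overlapped LP SP, IEL TR overlapped LP TR, and the other neighbours lay apart. IEL DP and IEL SP, although apart, differed by 0.23 ± 0.11 (adjusted p = 0.786), and LP DP and LP SP by 0.16 ± 0.11 (adjusted p = 0.715).

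Cd38 has a paralog beside it, Bst1, which was at 7.44 or less in every library. Genes listed as markers of CD8αβ and γδ T cells moved with Cd38. Which cells carried them was not tested, and Trdc and Trgc1 of that list were not found in the data. The sum of Cd8b1, Tcrg-C1 and Tcrg-C4 was 743 to 919 in IEL SP, 1360 to 1812 in IEL DP and 98.8 to 183 in IEL TR, and in the lamina propria 703 to 783 for DP, 251 to 341 for SP and 127 to 199 for TR. Of these 3 genes, 2 were at 10 or more in all libraries of the SP and DP groups and 1 in those of the TR groups, and Tcrg-C1 was at 0 in all IEL TR libraries. The sum of 10 epithelial markers was 441 to 734 in IEL SP and 211 to 516 in LP SP, where Fabp1, Krt19 and Phgr1 were at 0. It was 490 to 1330 in IEL DP and 297 to 509 in LP DP, where Krt19, Phgr1 and Vil1 were at 0. In IEL TR, where Cd38 was low, it was 472 to 607, and in LP TR 202 to 377. The markers did not move together, so the TR sums do not speak for the list as a whole. Epcam averaged 330 ± 37.0 (IEL TR) and 196 ± 51.7 (LP TR), but 61.4 or less for each SP and DP group. Of these markers, Cdh1 alone averaged 315 ± 94.9 in IEL SP, 187 ± 94.8 in LP SP, 294 ± 94.9 in IEL DP and 293 ± 82.4 in LP DP. Its TR means were 5.46 ± 3.46 (IEL) and 4.79 ± 2.32 (LP). The part of either marker list in the Cd38 differences was not tested.

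Art2b (ENSMUSG00000030651, chromosome 7, 101576970 to 101585600, minus strand) encodes the ADP-ribosyltransferase that can act on P2rx7. A near copy, Art2a-ps (ENSMUSG00000092517, chromosome 7, 101552453 to 101560865, minus strand), lies beside it and is annotated as a polymorphic pseudogene. The coding sequences of both transcripts in GENCODE M21 were identical in 761 of 852 aligned columns (89.3%). The stretch below, coding bases 436 to 525 of each gene counted from 1 at the A of the start codon, is shown because it holds the first in-frame stop of Art2a-ps and shows how a short read can tell the genes apart. Capitals mark the 18 of 90 bases that differ.
Art2b (chr7:101580166-101580255, minus strand): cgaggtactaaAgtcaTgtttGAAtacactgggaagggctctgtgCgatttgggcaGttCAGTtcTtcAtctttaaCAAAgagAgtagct
Art2a-ps (chr7:101554805-101554894, minus strand): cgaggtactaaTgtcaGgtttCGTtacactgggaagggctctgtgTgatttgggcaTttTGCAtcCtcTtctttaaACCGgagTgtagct
The substitution C481T, with Art2b as the reference, turns the codon CGA at bases 481 to 483 into TGA in Art2a-ps, its codon 161 of 288, whereas Art2b has its first stop at its last codon, 287. Of all 50-base words, 5.1% of those in the Art2b transcript and 11.6% of those in the Art2a-ps transcript also occur in the other, so reads from shared words could have been assigned to either gene or dropped, depending on the counting.

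Art2b was highest in the IEL TR libraries, at 601, 559 and 507 normalised counts, against 141, 274 and 287 in IEL SP and 292, 206 and 256 in IEL DP. In the lamina propria SP had 117, 251 and 158, DP 62.9, 122 and 127, and TR 222, 315 and 240. The 3 IEL TR libraries lay above the other 15, and the LP DP libraries lay below all LP TR and all IEL DP libraries.

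LP DP lay below LP TR (-1.36 ± 0.35, adjusted p = 0.0184), a call lost without LP DP replicate 1 (0.084) or LP TR replicate 2 (0.0766). IEL DP lay below IEL TR (-1.15 ± 0.20, adjusted p = 0.0331), a call lost without any 1 of the 6 libraries (0.0524 to 0.134). That call was also lost with a block for replicate number (0.105) and with no filter (0.371). IEL TR against IEL SP did not pass (1.31 ± 0.31, adjusted p = 0.0955), but did with 1 variance over all 18 libraries (0.0194) and with DESeq2 (0.00361). Those settings called 1799 and 1517 genes in all, against 450 in the main fit. IEL DP exceeded LP DP by 1.32 ± 0.35 (2.49-fold, adjusted p = 0.0302), a call lost with only those groups fitted (0.0536), without IEL DP replicate 1 (0.0941) or 3 (0.0853) and without LP DP replicate 1 (0.116). IEL TR against LP TR gave 1.11 ± 0.20 (adjusted p = 0.0853), and DESeq2 called it (adjusted p = 4.17e-05). DESeq2 called 929 genes in all there, against 93 in the main fit. In the order of means, IEL TR (556 ± 46.98) lay apart from LP TR (259 ± 49.2), and from there each group overlapped the next through IEL DP (251 ± 43.0), IEL SP (234 ± 80.5) and LP SP (175 ± 68.5) to LP DP (104 ± 35.8).

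Art2a-ps, named because of its likeness to Art2b, was counted at 508, 415 and 307 in IEL TR and at 291, 216 and 145 in LP TR. It stood at 76.1, 43.7 and 97.6 in IEL SP, 28.9, 34.8 and 52.1 in IEL DP, 66.8, 151 and 98.5 in LP SP and 26.8, 20.4 and 31.1 in LP DP. As for Art2b, the IEL TR libraries were the highest and the LP DP libraries were low. It was higher in IEL TR than in IEL SP (2.53 ± 0.38, adjusted p = 0.0307), lower in IEL DP than in IEL TR (-3.39 ± 0.34, adjusted p = 0.0069) and lower in LP DP than in LP TR (-2.97 ± 0.38, adjusted p = 0.000136). LP DP also lay below LP SP (-1.92 ± 0.38, adjusted p = 0.0341), where Art2b gave -0.74 ± 0.35 (adjusted p = 0.507). Of these 4 calls, that of LP DP against LP TR held under every alternative run, and the others were lost under 3 to 7 of them, at adjusted p up to 0.139.

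The share of Art2a-ps in the summed counts of both genes was 9.0%, 14.4% and 16.9% in IEL DP and 29.9%, 14.3% and 19.6% in LP DP. In TR cells it was 45.8%, 42.6% and 37.7% (IEL) and 56.8%, 40.8% and 37.7% (LP). In SP cells it was 35.0%, 13.8% and 25.4% (IEL) and 36.3%, 37.6% and 38.5% (LP). In both compartments every TR library had a larger share than every DP library, so the ratio of the 2 genes was not the same in TR and DP libraries.

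**Figure D2:**
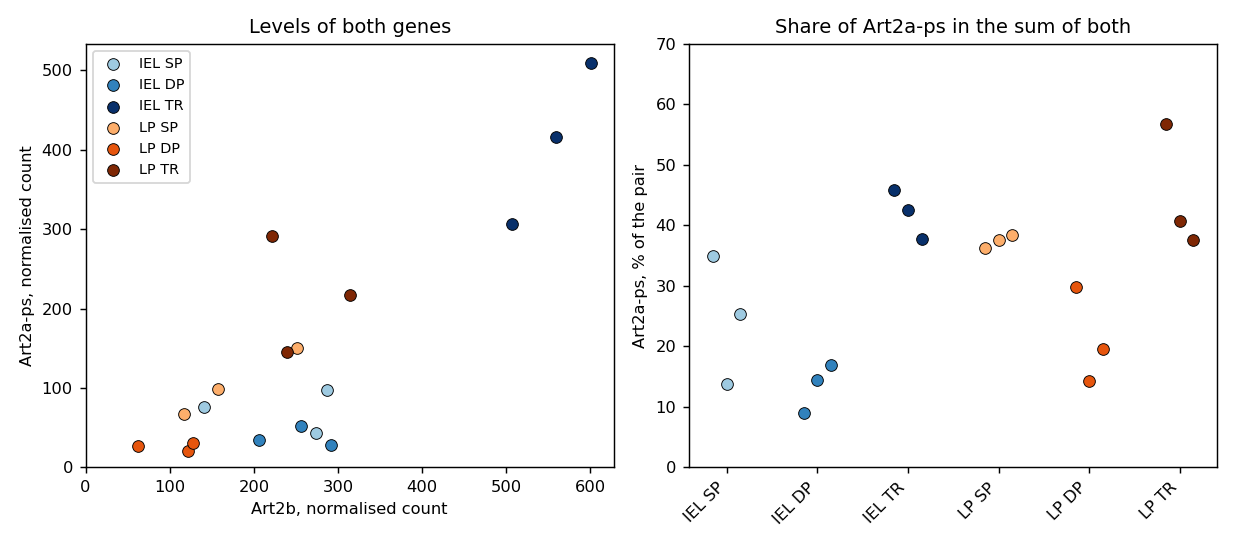
Left, normalised counts of Art2b (horizontal) and Art2a-ps (vertical) in the 18 libraries, coloured by group; right, the share of Art2a-ps in the sum of both (%, vertical) by group, 1 point per library. The IEL TR libraries sit alone at the upper right with 507 or more counts of Art2b, and the DP libraries have shares of 9.0% to 29.9% against 37.7% to 56.8% in TR.

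**Figure D3:**
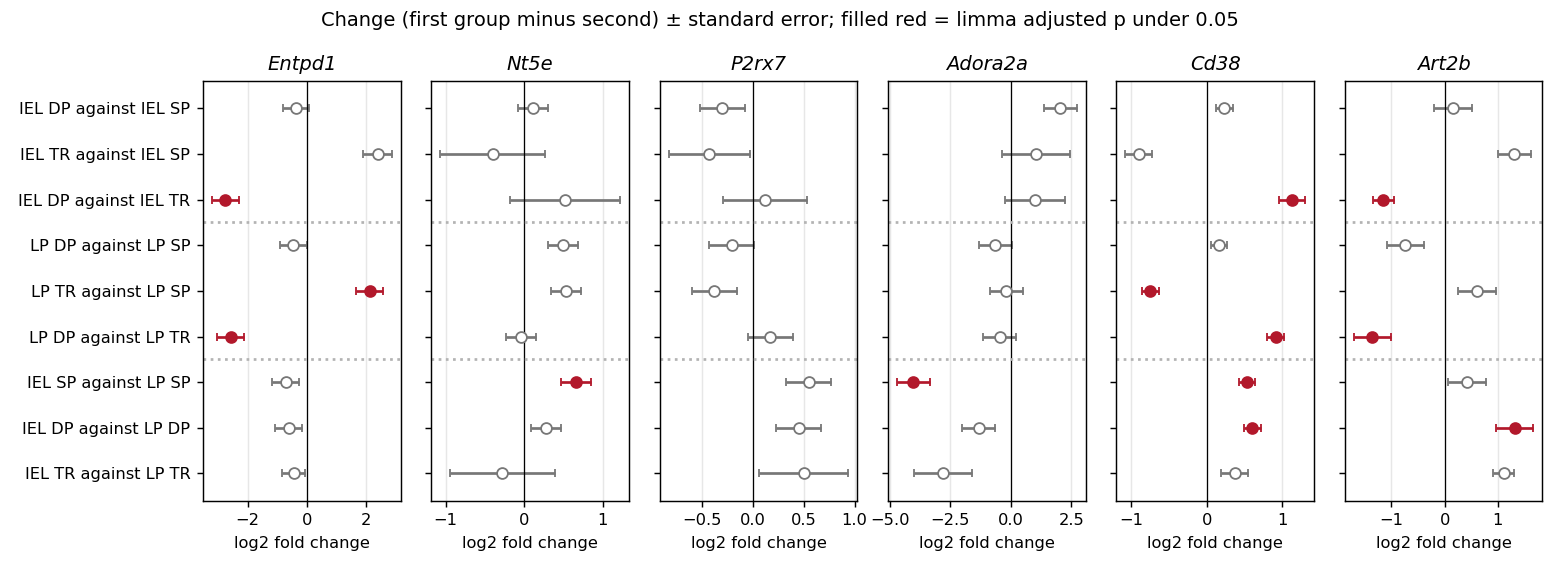
Change of each gene (horizontal, log2 fold change with a scale of its own per panel) in the 9 pairwise comparisons (rows), as point ± standard error; filled red points have a limma adjusted p under 0.05. Calls for Entpd1 lie only in comparisons of TR with other cells, Adora2a has its 1 call at -4.03 in IEL SP against LP SP, and P2rx7 has none.

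Neither test of an interaction called a member. For TR against SP, the difference between compartments was 0.27 ± 0.71 for Entpd1 (limma adjusted p = 0.946), -0.16 ± 0.22 for Cd38 (0.897) and 0.70 ± 0.46 for Art2b (0.75), beside 0.168% of all genes called. For DP against SP, 1 member (Adora2a, above) reached an unadjusted p under 0.05, and limma called 0% of the 15472 genes, with 974 at an unadjusted p under 0.05, 0 called by edgeR and 31 by DESeq2. This test also sets the IEL against LP change of DP cells beside that of SP cells, and gave 0.07 ± 0.16 for Cd38 (adjusted p = 0.97), -0.38 ± 0.27 for Nt5e (0.872) and 0.90 ± 0.49 for Art2b (0.818). For TR against SP, 0 members reached an unadjusted p under 0.05. Neither edgeR nor DESeq2 called a member in either test.

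Levels of different genes were compared per kilobase of exon in GENCODE M21. Cd38 ran from 229 normalised counts per kilobase in LP TR to 650.0 in IEL DP, P2rx7 from 83.9 to 156, Nt5e from 55.4 to 97.1 and Art2b from 36.8 to 196.5. Entpd1 ran from 3.76 in IEL DP to 35.9 in LP TR, and Adora2a from 2.45 in IEL SP to 29.5 in LP SP. Entpd1 or Adora2a was thus the lowest of the 6 in every group. In IEL TR and LP TR the second highest was Art2b, at 196.5 and 91.5 per kilobase, and in the other groups it was P2rx7.

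The other genes of the pathway were taken from 4 lists. Of 13 genes for ATP release and extracellular nucleotide breakdown, 7 were tested. Besides Entpd1 and Nt5e, Enpp1 and Acpp had calls. Enpp1, an enzyme that also cleaves extracellular ATP, stood at 421 ± 49.8 in LP SP and 354 ± 85.7 in LP DP, against 209 ± 11.2 in LP TR and 220 to 229 on average in the IEL groups. It was lower in LP TR than in LP SP (-1.0 ± 0.17, adjusted p = 0.00172), higher in LP DP than in LP TR (0.73 ± 0.17, adjusted p = 0.00947), and lower in IEL than in LP cells for SP (-0.87 ± 0.17, adjusted p = 0.00453) and DP (-0.66 ± 0.17, adjusted p = 0.0246). Within the lamina propria Entpd1 and Enpp1 thus moved in opposite directions between TR and SP cells. The 2 Enpp1 calls of LP SP held under every alternative run, that of LP DP against LP TR was lost with only those groups fitted (0.063), and that of IEL DP against LP DP was lost under 7 of 18 alternatives (up to 0.0987). Acpp, a phosphatase that can turn AMP into adenosine, was higher in LP DP than in LP TR (177 ± 49.0 against 93.5 ± 15.1, 0.89 ± 0.26, adjusted p = 0.0366), a call lost under 7 of 18 alternatives (up to 0.154).

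Of 14 P2 receptors 4 were tested, and P2ry13 was at 0 in all libraries. P2rx4, an ATP-gated channel of the same family as P2rx7, was higher in IEL TR than in IEL SP (341 ± 56.9 against 139 ± 6.94, 1.27 ± 0.21, adjusted p = 0.0409), and its LP TR against LP SP value did not pass (0.76 ± 0.24, adjusted p = 0.0613). It was the only P2 receptor called in any of the 9 pairwise comparisons. Of 12 genes for adenosine receptors, uptake and removal 9 were tested. Slc29a1, a nucleoside transporter, was lower in LP DP than in LP TR (55.6 ± 23.9 against 135 ± 42.9, -1.28 ± 0.37, adjusted p = 0.035), and no other gene of that list than Adora2a and Slc29a1 was called. The P2rx4 call was lost under 9 of 17 alternatives (up to 0.167) and the Slc29a1 call under 8 of 18 (up to 0.144).

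Of 19 genes for NAD enzymes, NAD supply and P2rx7 partners 16 were tested, and they gave most of the calls of the 4 lists, with 1 higher and 6 lower in LP DP against LP TR, where 5.42% of all genes were higher and 7.76% lower. The median change of the 16 there was -0.70, and that of all genes 0.006. Nampt, the rate-limiting enzyme of NAD salvage, stood at 2802 ± 275 in LP TR against 522 ± 66.2 in LP SP and 621 ± 298 in LP DP. It was higher in LP TR than in LP SP (2.43 ± 0.33, adjusted p = 0.000401) and lower in LP DP than in LP TR (-2.29 ± 0.33, adjusted p = 0.000392), and both calls held under every alternative run. In IEL TR it was at 741 ± 405, and IEL TR against IEL SP did not pass (0.46 ± 0.55, adjusted p = 0.738).

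Nadk, which makes NADP from NAD, was lowest in LP DP (99.0 ± 33.4). It was lower there than in LP SP (260.4 ± 51.7, -1.41 ± 0.28, adjusted p = 0.0302) and LP TR (227 ± 45.2, -1.22 ± 0.28, adjusted p = 0.00866), and higher in IEL DP than in LP DP (188 ± 44.2, 0.94 ± 0.28, adjusted p = 0.0473). The call against LP TR held under every alternative run, and the others were lost under 7 of 18 (up to 0.14) and 11 of 18 (up to 0.173). Naprt, which starts NAD synthesis from nicotinic acid, was at 56.3 ± 20.96 in LP TR and 0.85 ± 1.47 in LP DP (adjusted p = 0.0191), a call lost under 6 of 18 alternatives. These were edgeR (0.0528), DESeq2 (0.123) and leaving out replicate 1 or 3 of LP DP or of LP TR (0.0559 to 0.0651). Adprh, a hydrolase that removes ADP-ribose from arginine, is named after its values were seen. It was higher in LP TR than in LP SP (674 ± 40.0 against 399 ± 95.5, 0.79 ± 0.22, adjusted p = 0.0368), lower in LP DP than in LP TR (-0.79 ± 0.22, adjusted p = 0.0274), and higher in IEL than in LP cells for SP (0.75 ± 0.22, adjusted p = 0.0439) and DP (0.83 ± 0.22, adjusted p = 0.0301). Each of its 4 calls was lost under 6 to 12 of 18 alternatives, at adjusted p up to 0.156.

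**Figure D4:**
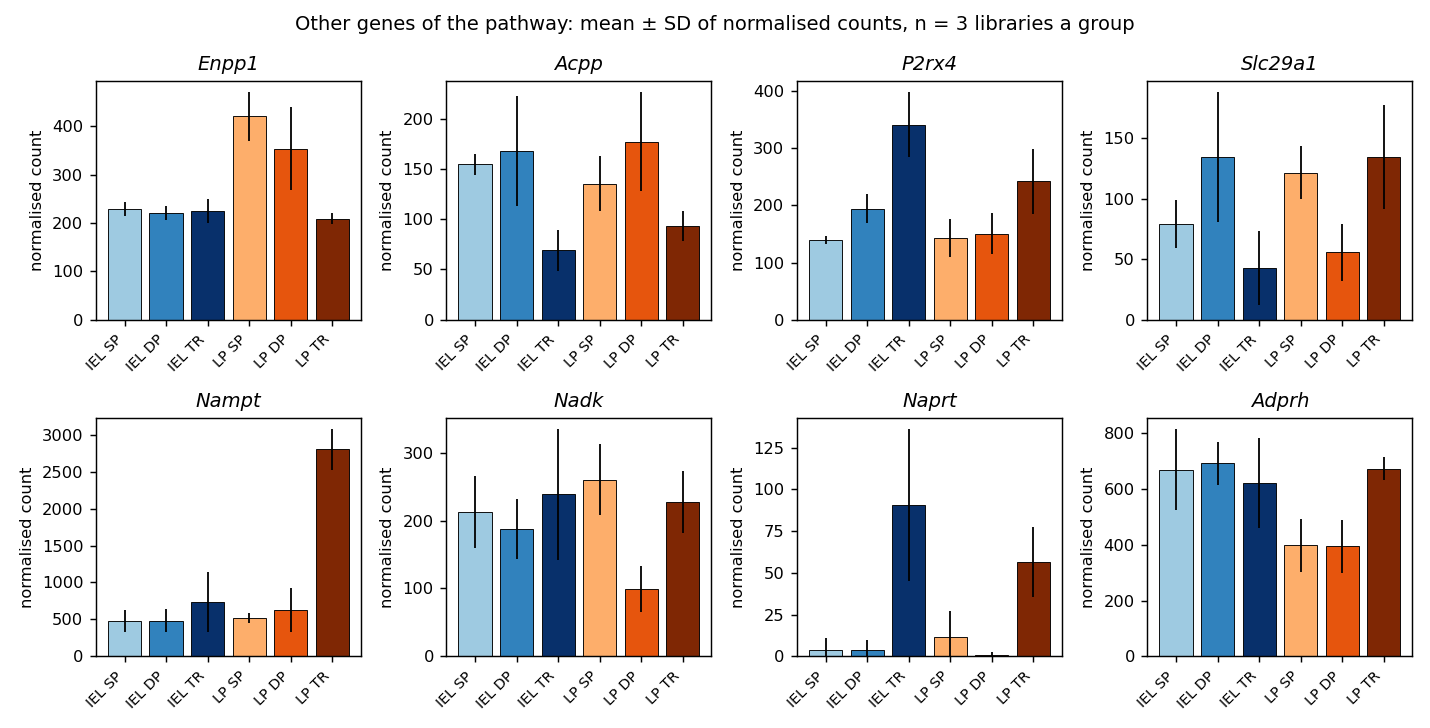
Normalised counts (vertical axes, from 0) of 8 other genes of the pathway in the 6 groups, as mean (bar) ± SD (line), n = 3. Nampt stands at 2802 in LP TR and at 741 or less on average in the other groups, and Enpp1 is highest in LP SP and LP DP.

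The 3 genes most like each member were taken by Pearson correlation of log2 values over the 18 libraries, among 8146 genes. These correlations describe the libraries, which share groups and depth, and carry no test. For Entpd1 they were Cd2 (r = 0.924), Gpx4 (0.921) and Dhrs3 (0.919), of which Dhrs3 stood at 764 in LP TR and 357 in IEL TR and at 33.7 or less on average elsewhere. For Cd38 they were Plekhf1 (0.948), Rnf166 (0.943) and Baiap3 (0.935), and Plekhf1 ran from 483 in IEL DP to 1.19 in LP TR. Art2b was closest to Tmem254c (0.956), Tmem254b (0.926) and Lbh (0.903), all highest in IEL TR. Adora2a was closest to Traf4 (0.85), Ube2d3 (0.847) and Ptbp1 (0.839), and Traf4 stood at 323 to 445 on average in the LP groups and 58.2 to 100.2 in the IEL groups. For Nt5e the genes were Papola (0.911), Pqlc2 (0.909) and Tpra1 (0.906), and for P2rx7 Itga2 (0.872), Ict1 (0.843) and Susd3 (0.812).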

How the data were processed

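RNA from sorted cells was reverse transcribed and made into Nextera XT libraries, per the labels' protocols. TopHat, HTSeq and mm10 (GRCm38) are named, without versions, per the submitters' processing notes. The deposited table holds 1 signal per gene and library, a normalised count. The authors' signal is a read count times 1 factor per library, as dividing a library's values by its smallest step gave whole numbers to within 0.1; how the factors were computed and whether strand was used are not given in the sources used here. Dividing by the step recovered whole reads (5093955 to 8851347 per library), used only for edgeR and DESeq2. Reads copied by PCR and not marked by molecular identifiers are not independent, so depth speaks to counting error only.

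Genes with at least 10 normalised counts in at least 3 libraries were taken to log2 after adding 1 and fitted with limma 3.58.1 (R 4.3.3; trended, robust variance). Comparisons without IEL TR used 15 libraries; those with IEL TR used only their own groups, because of its wider spread. Adjusted p is Benjamini-Hochberg over all genes tested. The fits were also run on simulated counts with a common dispersion per group and no effect of replicate number. That run cannot speak to the spread of single genes or to likeness by replicate number in these data. Alternatives were 1 fit over all libraries, only the groups compared, library weights, pseudocounts of 0.5 and 5, no filter and a filter at 50, equal totals, quantile normalisation, edgeR 4.0.16, DESeq2 1.42.0, a replicate block and leaving out each library; for pathway genes these were added after seeing the data. In leave-one-out fits a group of 2 libraries shares the variance of the others.

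Gene positions, exon lengths and coding sequences are from GENCODE M21 (GRCm38), in which 36639 of the 38392 identifiers were found. Coding sequences were aligned with Biopython 1.88. All members are named. Of the pathway lists, genes called in at least 1 pairwise comparison and averaging 50 or more in its higher group are named, at most 6 per list by smallest adjusted p. The exception is Adprh, which ranked 7 in its list and was added after its values were seen. The 3 most correlated genes are named among those with a mean of at least 50, leaving out predicted genes, pseudogenes, small RNAs and receptor segments. Members, lists, fits and marker lists were chosen with earlier results of these data known.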

Additional observations from a re-analysis of the deposited data

How the results depend on the processing

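With 3 libraries a group, and IEL TR more dispersed than the rest, comparisons with IEL TR depended most on the settings. For IEL TR against IEL SP, limma called 0 members, against 3 with 1 fit over all 18 libraries, 1 with library weights, 1 with quantile normalisation and 3 with DESeq2, and 0 to 1 when a library was left out. For IEL DP against IEL TR the count went from 3 to 0 with no filter and 0 with the replicate block, and to between 0 and 2 without 1 library. For IEL DP against LP DP it went from 2 to 1 with only the groups compared, and to between 1 and 2 without 1 library. For IEL TR against LP TR it went from 0 to 1 with DESeq2. The cause was not tested. By construction the fit with no filter adjusts over more genes, and fits without a library hold fewer samples. With no filter, genes at an unadjusted limma p under 0.05 also went from 2786 of 15472 to 1893 of 29986 in IEL DP against IEL TR. In the other pairwise comparisons the count of members called stayed within 1.5 times under every alternative.

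Libraries with the same replicate number were weakly alike. Each of the 18 libraries was closest to those sharing its number. The 45 residual correlations between same-number libraries were positive but small, from 0.00053 to 0.0887, and none reached 0.1. The main fits held no term for replicate number. The source of this likeness was not tested. Besides IEL DP against IEL TR, the replicate block changed no count of members called.

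Signs changed only for values that were not called. Nt5e went to 0.06 with library weights in IEL TR against IEL SP, to 0.01 with equal totals and 0.06 with quantile normalisation in LP DP against LP TR, and to 0.19 with library weights, 0.06 with edgeR and 0.08 with DESeq2 in IEL TR against LP TR. P2rx7 went to 0.09 with edgeR and 0.09 with DESeq2 in the TR interaction. Without 1 library, log2 changes in IEL DP against IEL SP ran from -0.17 to 0.34 for Art2b and from -0.04 to 0.38 for Nt5e. In IEL TR against IEL SP they ran from -0.11 to 2.26 for Adora2a and from -0.90 to 0.39 for Nt5e. In IEL DP against IEL TR they ran from -0.22 to 2.15 for Adora2a, from -0.30 to 0.49 for P2rx7 and from -0.27 to 1.01 for Nt5e. In the lamina propria they ran from -0.40 to 0.02 for P2rx7 in DP against SP, from -0.51 to 0.17 for Adora2a in TR against SP, and from -0.03 to 0.38 for P2rx7 and from -0.10 to 0.03 for Nt5e in DP against TR. For Nt5e in IEL TR against LP TR the range was -0.77 to 0.51. In the DP interaction they ran from -0.04 to 0.15 for Cd38, from -0.32 to 0.10 for P2rx7 and from -0.33 to 0.57 for Entpd1, and in the TR interaction from -0.27 to 0.01 for Cd38, from -0.41 to 0.38 for P2rx7 and from -0.16 to 0.75 for Entpd1.

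Counts of all genes called moved by over 1.5 times under at least 1 alternative in each comparison other than LP DP against LP TR. Beside the main counts, the alternatives gave 37 to 1799 (main 450) for IEL TR against IEL SP, 9 to 2170 (640) for IEL DP against IEL TR, 0 to 1008 (93) for IEL TR against LP TR, 8 to 105 (33) for IEL DP against IEL SP and 45 to 357 (119) for LP DP against LP SP. They gave 854 to 1903 (1470) for LP TR against LP SP, 1375 to 2434 (2039) for LP DP against LP TR, 862 to 2082 (1533) for IEL SP against LP SP, 847 to 2156 (1472) for IEL DP against LP DP, and 0 to 31 (0) and 0 to 186 (26) for the DP and TR interactions. Rescaling to equal totals moved the median of all genes from -0.05 to -0.20 in IEL TR against IEL SP, from 0.06 to 0.24 in IEL DP against IEL TR and from -0.04 to -0.14 in the TR interaction, and the calls there from 231 higher and 219 lower to 164 and 236, and from 275 and 365 to 298 and 235, in the first 2; in IEL DP against LP DP they went from 634 and 838 to 860 and 625.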
